A study of Mus musculus with 8 samples.

Results

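Liver sinusoidal endothelial cells line the capillaries of the hepatic lobule. They are perforated by fenestrae, lack an organized basement membrane and clear macromolecules from blood through scavenger and lectin receptors. In chronic liver disease these cells can lose fenestrae, lay down a basement membrane and gain surface proteins of ordinary continuous capillaries, a change called capillarization. The 9 genes described here are Stab1, Stab2, Lyve1, Clec4g and Oit3, which mark sinusoidal cells, Kdr and Pecam1, which are found on endothelium in general, and Vwf and Cd34, which are usually scarce on healthy sinusoids and more abundant on vessels with continuous endothelium. They were chosen by name, with earlier results of these data known, and each of the 9 symbols matched 1 of the 52636 genes in the count files.

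The mice were wild-type C57BL/6J males. At 7 weeks of age 4 mice received AAV8-TBG-GFP (AAV8-GFP, mice 303, 311, 314 and 315) and 4 received AAV8-TBG-AGXT (AAV8-AGXT, mice 308, 309, 316 and 319), an adeno-associated virus that carries human AGXT, which encodes alanine-glyoxylate aminotransferase. The TBG promoter drives both transgenes in hepatocytes, so endothelial cells were not the cells meant to express them. All 8 mice ate a high-fat, high-cholesterol, high-fructose MASH diet for 24 weeks from 8 weeks of age, with no chow-fed group among these libraries, so no level below is a healthy baseline. A single poly(A) RNA library was made from a piece of each mouse's liver, with all its cell types together. The question asked here is whether endothelial markers differed between AAV8-AGXT and AAV8-GFP livers.

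Between 17095433 and 28780140 read pairs per library were assigned to genes, which was 56.3% (mouse 308) to 69.1% (mouse 314) of all read pairs tallied. Levels are counts scaled to a common library total (CPM) after TMM, a correction for the composition of each library. Of 15248 genes with enough counts to be tested, 664 passed an adjusted p of 0.05 in edgeR's quasi-likelihood test, 374 higher and 290 lower in AAV8-AGXT livers. Reads assigned to mouse Agxt averaged 164 CPM with AAV8-GFP, and 305 CPM with AAV8-AGXT (log2 fold change 0.90, adjusted p = 0.0489, and 0.0316 to 0.146 with 1 mouse left out), and whether reads of the human transcript entered that row was not tested. The 10 genes of the hepatocyte list summed to between 47938.5 and 81401.9 CPM per library, against 234 to 525 CPM for the 20 genes of a pan-endothelial list. Both the number of endothelial cells in the piece of liver and the RNA made per cell set these levels, and the libraries cannot tell them apart.

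Sequences upstream of 3 of the genes are shown because their levels behaved differently across the 8 livers: Clec4g, the most abundant marker for its length, Kdr, whose profile was nearly the same as that of Oit3, and Cd34, which had the largest difference between the groups. Each is the 240 bases that end shortly before the annotated start in RefSeq's table for GRCm38.p6, written along the gene's own strand at chr8:3720662-3720901 (Clec4g, minus), chr5:75978466-75978705 (Kdr, minus) and chr1:194938571-194938810 (Cd34, plus). Capitals mark GGAA or its reverse complement TTCC, the core letters bound by ETS factors, a family with many members in endothelium.
Clec4g: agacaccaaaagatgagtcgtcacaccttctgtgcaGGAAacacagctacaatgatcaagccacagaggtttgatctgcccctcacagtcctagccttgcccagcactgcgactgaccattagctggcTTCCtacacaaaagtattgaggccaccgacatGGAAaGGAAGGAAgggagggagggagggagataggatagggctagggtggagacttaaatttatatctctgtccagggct
Kdr: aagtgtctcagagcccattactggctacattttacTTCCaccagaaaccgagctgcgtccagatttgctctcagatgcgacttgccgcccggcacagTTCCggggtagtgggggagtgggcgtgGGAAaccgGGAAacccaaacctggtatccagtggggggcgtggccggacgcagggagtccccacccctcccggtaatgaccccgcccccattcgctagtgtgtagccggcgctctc
Cd34: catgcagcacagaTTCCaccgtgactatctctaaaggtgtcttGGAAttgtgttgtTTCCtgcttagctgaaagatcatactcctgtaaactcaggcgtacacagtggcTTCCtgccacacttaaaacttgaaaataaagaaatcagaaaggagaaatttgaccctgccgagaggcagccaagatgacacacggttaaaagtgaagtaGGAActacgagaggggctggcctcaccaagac
There are 5 such matches in the Clec4g window, 4 in the Kdr window and 5 in the Cd34 window. The windows of Stab1 and Stab2, the other 2 members in the table, held 5 and 6, although part of the Stab2 window lies inside the gene as GENCODE M21 places it. Of all 32851 windows of the same length, 92.67% held at least 1 match, with a median of 3, and 30.5% held 4 or more. The letters GATAA or TTATC, a form read by GATA factors, were in none of the 5 windows and in 22.03% of all windows. Other forms were not counted: GATAG is in the Clec4g window above and its reverse complement CTATC in the Cd34 window. These are matches of letters only. Lyve1, Oit3, Pecam1 and Vwf have no entry in the table.

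Set side by side per kilobase of exon, the lectin Clec4g was the most abundant of the 9, with a median of 14.9 CPM per kilobase over the 8 livers. It was followed by the scavenger receptors Stab1 (9.19) and Stab2 (6.81), by Oit3 (6.78), Pecam1 (2.87), Lyve1 (2.66) and Kdr (2.08), and then by Vwf (0.574) and Cd34 (0.486), all as medians on that scale. Of the 8 pairs of neighbours in this order, 3 did not overlap over the 8 livers: Clec4g (lowest liver 11.002) and Stab1 (highest 10.8), Oit3 (lowest 4.002) and Pecam1 (highest 3.26), and Kdr (lowest 1.23) and Vwf (highest 0.700). These gaps hold for the adjacent genes only and do not divide the 9 into tiers, since Oit3 reached 12.6, Lyve1 5.02 and Cd34 1.41 CPM per kilobase in their highest livers. Within each liver every sinusoidal marker was above Vwf and Cd34. With the longest transcript as the length, the medians of Kdr and Lyve1, and those of Cd34 and Vwf, changed places, and Lyve1 was below Cd34 in mouse 311.

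The hyaluronan and scavenger receptors came out at similar levels in both groups. Stab1 (stabilin-1, ENSMUSG00000042286, chr14:31139013-31168641, minus strand) encodes a receptor for modified lipoproteins and matrix fragments that is also made by some macrophages. Its level was 96.6, 105, 92.6 and 82.7 CPM in AAV8-GFP mice 303, 311, 314 and 315, and 111, 81.8, 98.6 and 68.8 CPM in AAV8-AGXT mice 308, 309, 316 and 319, the order in which mice are given throughout. The AAV8-AGXT livers held both the highest and the lowest value, around means of 94.2 ± 9.25 and 90.1 ± 18.6 CPM (SD, n = 4 each). The log2 fold change of AAV8-AGXT over AAV8-GFP was -0.07 (SE 0.15, 95% interval -0.41 to 0.27, adjusted p = 0.82).

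Stab2 (stabilin-2, ENSMUSG00000035459, chr10:86841198-87008025, minus strand), the main hyaluronan clearance receptor of sinusoids, was at 70.7, 59.5, 58.1 and 48.2 CPM in AAV8-GFP livers and 78.6, 65.7, 59.7 and 56.1 CPM in AAV8-AGXT livers. The ranges overlapped over most of their length, and the log2 fold change was 0.14 (SE 0.14, 95% interval -0.18 to 0.45, adjusted p = 0.576). Lyve1 (ENSMUSG00000030787, chr7:110850607-110863239, minus strand), a hyaluronan receptor of sinusoidal and lymphatic endothelium, was at 9.10, 6.15, 10.2 and 3.93 CPM in AAV8-GFP livers and 6.42, 14.7, 10.015 and 3.16 CPM in AAV8-AGXT livers. Lyve1 spread over a 4.64-fold range across the 8 livers, against 1.61-fold for Stab1 and 1.63-fold for Stab2, and its interval was correspondingly wide (log2 fold change 0.22, SE 0.43, -0.75 to 1.19, adjusted p = 0.789). In the main fit the 95% intervals of Stab1 and Stab2 reach no further than 1.37-fold in either group's favour, while that of Lyve1 reaches 2.28-fold. These limits depend on the scaling: over 17 other settings the log2 fold change of Stab1 went as low as -0.31.

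Clec4g and Oit3, whose products are a C-type lectin of sinusoids and a secreted or surface protein with a zona pellucida domain, had higher means in AAV8-AGXT livers but overlapping values. Clec4g (ENSMUSG00000074491, chr8:3707064-3720651, minus strand) was at 42.2, 35.4, 29.7 and 31.5 CPM in AAV8-GFP livers and 70.2, 37.98, 40.6 and 27.1 CPM in AAV8-AGXT livers. Mouse 308 alone lay above the AAV8-GFP range, and mouse 319 lay below it. The log2 fold change was 0.34 (SE 0.25, 95% interval -0.22 to 0.90, adjusted p = 0.423), and it was 0.01 without mouse 308 and 0.52 without mouse 319.

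Oit3 (ENSMUSG00000009654, chr10:59422958-59441778, minus strand) was at 25.3, 13.8, 15.3 and 11.2 CPM in AAV8-GFP livers and 35.0, 26.0, 22.5 and 11.9 CPM in AAV8-AGXT livers. Mice 308 and 309 lay above the AAV8-GFP range, while mouse 319 fell among its lower values. The log2 fold change was 0.54 (SE 0.33, 95% interval -0.19 to 1.26, adjusted p = 0.323). It was 0.28 without mouse 308 and 0.83 without mouse 303.

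Kdr and Pecam1 are carried by endothelium of most kinds. Kdr (ENSMUSG00000062960, chr5:75932827-75978458, minus strand) encodes VEGF receptor 2, through which VEGF-A supports endothelial survival and, in sinusoids, fenestration. Its level was 24.6, 15.2, 14.9 and 11.1 CPM in AAV8-GFP livers and 40.0, 25.1, 22.4 and 12.4 CPM in AAV8-AGXT livers, the same ordering of mice as for Oit3 apart from mice 311 and 314. Mice 308 and 309 lay above the AAV8-GFP range and mouse 319 near its bottom, with a log2 fold change of 0.60 (SE 0.34, 95% interval -0.15 to 1.34, adjusted p = 0.289). It was 0.26 without mouse 308 and 0.85 without mouse 303. Pecam1 (CD31, ENSMUSG00000020717, chr11:106654217-106750628, minus strand), an adhesion molecule of endothelial junctions that is also on platelets and leukocytes, was at 17.8, 14.7, 18.5 and 15.04 CPM in AAV8-GFP livers and 19.4, 20.3, 18.03 and 14.1 CPM in AAV8-AGXT livers. It was the steadiest of the 9 across mice, with a 1.44-fold range over all 8, and its log2 fold change was 0.12 (SE 0.14, 95% interval -0.20 to 0.44, adjusted p = 0.624).

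Vwf and Cd34, the markers of continuous endothelium, had lower means in AAV8-AGXT livers, by a little for Vwf and by 3.17-fold for Cd34. Vwf (ENSMUSG00000001930, chr6:125546774-125686679, plus strand) encodes von Willebrand factor, which endothelial cells store and platelets bind. It was at 11.2, 7.56, 9.18 and 10.3 CPM in AAV8-GFP livers and 11.1, 9.25, 6.98 and 4.72 CPM in AAV8-AGXT livers, with mice 316 and 319 below the AAV8-GFP range and mouse 308 near its top. The log2 fold change was -0.26 (SE 0.25, 95% interval -0.82 to 0.29, adjusted p = 0.54).

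Cd34 (ENSMUSG00000016494, chr1:194938819-194961279, plus strand) encodes a sialomucin of capillary endothelium that fibroblasts and blood progenitors also carry. It was at 6.83, 8.72, 10.3 and 2.999 CPM in AAV8-GFP livers, from 175, 285, 223 and 68 read pairs, and at 0.828, 3.49, 3.60 and 1.13 CPM in AAV8-AGXT livers, from 12, 58, 70 and 24 read pairs. AAV8-GFP mice 303, 311 and 314 were above every AAV8-AGXT mouse, and the groups met only at mouse 315, which was below mice 309 and 316. The means were 7.21 ± 3.14 and 2.26 ± 1.48 CPM (SD, n = 4 each), and the log2 fold change was -1.67 (SE 0.50, 95% interval -2.79 to -0.55). In edgeR's quasi-likelihood test this gave an unadjusted p of 0.00789 and an adjusted p of 0.081, which misses the threshold, at rank 1485 by p among the tested genes. An exact two-sided permutation test over the 70 ways to divide the mice gave p = 0.0857 for Cd34, where 0.0286 is the smallest it can give. Over 17 other settings of the analysis the log2 fold change stayed between -1.98 and -1.42 and the adjusted p between 0.0108 and 0.217, passing in DESeq2 (0.0108) and when no filter on low counts was used (0.0459).

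**Figure D1:**
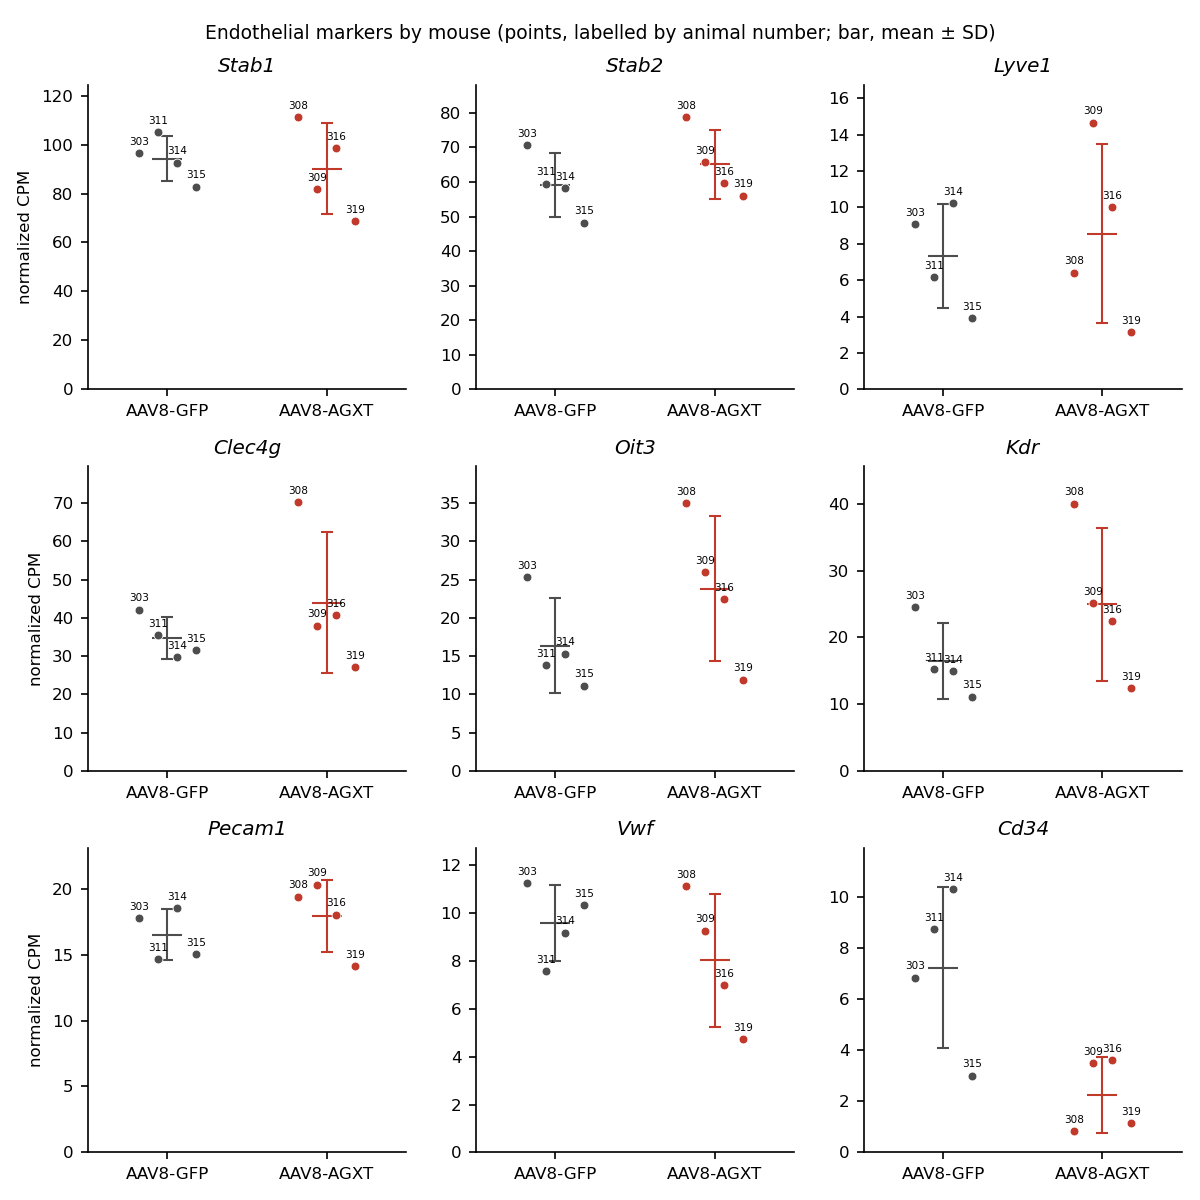
TMM-scaled CPM (vertical axes, each from 0) of the 9 endothelial markers in the 4 AAV8-GFP and 4 AAV8-AGXT livers; points are mice labelled by animal number, bars are group means ± SD. The groups overlap for all 9 genes, for Cd34 only through mouse 315 at 2.999 CPM against mice 309 and 316 at 3.49 and 3.60 CPM.

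None of the 9 markers passed the adjusted threshold in edgeR, against 4.35% of all tested genes (2.45% higher, 1.90% lower), and none had groups without overlap in CPM, against 16.6% of all tested genes (8.93% higher, 7.63% lower). At an unadjusted p under 0.05, 1 of 9 passed (Cd34, lower), against 26.2% of all tested genes and 12.6% in the lower direction. DESeq2, which called 12.4% of its genes and 6.11% lower, called Cd34 and no other member. A log2 fold change below -1, irrespective of any test, was found for Cd34 and for 4.93% of tested genes. Exact two-sided permutation p-values of the other 8 markers ranged from 0.257 (Kdr) to 0.857 (Lyve1).

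Much of the spread within each group followed the individual liver. Mouse 319 had the lowest value of its group for 8 of the 9 markers and mouse 308 the highest for 6, while in AAV8-GFP livers mouse 315 was lowest for 6 and mouse 303 highest for 5. The 20 genes of the pan-endothelial list, which includes VE-cadherin (Cdh5), Tie1, Tek and endoglin (Eng), were ordered in the same way. In that list mouse 308 was highest of its group for 17 genes and mouse 319 lowest for 18, and mouse 303 was highest for 16 and mouse 315 lowest for 18 of the AAV8-GFP values. Library 308 also had the lowest share of read pairs on genes (56.3%), the most reads unaligned (6.05%, against 1.32% to 4.55% in the others) and the highest summed level of the hepatocyte and erythrocyte lists. The part of these differences in the markers was not tested.

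Members were therefore also measured against other endothelial genes of the same library, as the log2 CPM of the marker minus the mean log2 CPM of the pan-endothelial list. That mean was 3.38 ± 0.33 in AAV8-GFP and 3.40 ± 0.50 in AAV8-AGXT livers (SD, n = 4 each). On this scale Cd34 was at -0.98, -0.19, -0.08 and -1.33 in AAV8-GFP and at -4.07, -1.62, -1.57 and -2.45 in AAV8-AGXT livers. Its groups no longer overlapped, a difference in means of -1.78, and they did not overlap with Cdh5 as the only reference (-2.02). Kdr was at 0.86, 0.61, 0.46 and 0.53 in AAV8-GFP and at 1.38, 1.20, 1.04 and 0.90 in AAV8-AGXT livers, higher without overlap by 0.51. That separation of Kdr was lost against Cdh5 alone, where the difference was 0.28. For the other 7 markers the groups overlapped, with differences from -0.33 (Vwf) to 0.48 (Oit3). Groups without overlap on this scale were found for 4.19% of all tested genes, 2.88% lower and 1.31% higher.

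**Figure D2:**
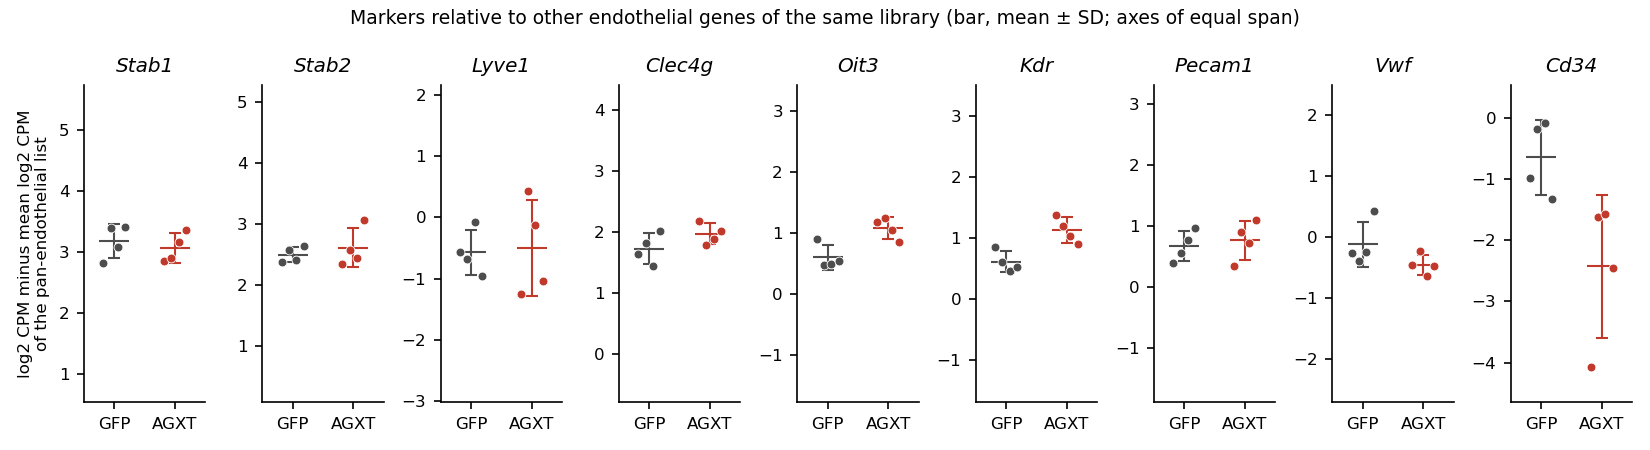
Each marker's log2 CPM minus the mean log2 CPM of the 20 pan-endothelial genes in the same library (vertical axes of equal span but different offsets), by mouse (points) with group mean ± SD (bars). Cd34 lies lower in all 4 AAV8-AGXT livers (-4.07 to -1.57) than in all 4 AAV8-GFP livers (-1.33 to -0.08), Kdr lies higher (0.90 to 1.38 against 0.46 to 0.86), and the other 7 overlap.

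The other genes of the endothelial lists give the setting of these markers. Of 17 further sinusoidal genes 16 were tested, none passed the threshold, and their median log2 fold change was 0.27, with 12 above 0 and 4 below, against a median of 0.02 over all tested genes. The 3 most abundant were the fatty acid transporter Cd36 (log2 fold change 0.29, adjusted p = 0.28), the endocytic trafficking gene Ehd3 (0.68, adjusted p = 0.241) and the inhibitory Fc receptor Fcgr2b (-0.01, adjusted p = 0.985). At an unadjusted p under 0.05, 2 of the 16 were higher, near the 13.5% of all tested genes. They were Wnt2 and Mrc1, picked out after their values were seen. Wnt2, an angiocrine Wnt ligand of central sinusoids, had a log2 fold change of 0.77 (SE 0.27, adjusted p = 0.114). The list's median was 0.16 without mouse 308 (6 below 0) and 0.41 without mouse 319 (1 below 0). With total counts in place of TMM it was 0.04 while that of all tested genes was -0.22, so the list lay above the rest by about the same amount under both scalings.

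All 20 pan-endothelial genes were tested and none passed, with a median log2 fold change of 0.07, 14 above 0 and 6 below. Eng, a TGF-beta co-receptor, had a log2 fold change of -0.04 (adjusted p = 0.922), the phosphatase gene Ptprb 0.61 (adjusted p = 0.285) and Ushbp1 0.07 (adjusted p = 0.847). The sign of this small median was not stable: it was -0.14 without mouse 308, -0.04 without mouse 315, -0.02 with limma-voom and -0.06 with voom quality weights, and 0.27 without mouse 319. With total counts it was -0.16, against -0.22 for all tested genes.

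The list of continuous and capillarised endothelium, which holds caveolar, fenestral diaphragm and basement membrane genes, lay on the same side as Cd34. All 16 tested of its 18 genes had a log2 fold change below 0, with a median of -0.55. Against 1.90% of all tested genes called lower, 1 of the 16 passed the threshold. That gene was Cd9, a tetraspanin, at 70.4, 67.6, 57.2 and 54.8 CPM in AAV8-GFP livers and 19.8, 35.5, 36.3 and 31.1 CPM in AAV8-AGXT livers. Cd9 was lower in every AAV8-AGXT liver than in any AAV8-GFP liver (log2 fold change -1.03, SE 0.18, adjusted p = 0.0298). It passed in all 9 settings that kept the 8 mice and was lost without mouse 303, 311, 314 or 319 (adjusted p 0.053, 0.126, 0.0798 and 0.0851). The libraries hold all liver cell types together, and which of them the Cd9 reads came from was not tested. At an unadjusted p under 0.05, 9 of the 16 genes were lower, against 12.6% of all tested genes, and 3 had groups without overlap, against 7.63% lower of all tested genes. The list was chosen with earlier results of these data known, so its shared direction and these counts are a description and not a test.

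Several basement membrane genes are in that list, and none of them was called in the main fit. The collagen IV gene Col4a1 had a log2 fold change of -0.60 (SE 0.27, adjusted p = 0.19), the laminin gene Lamc1 -0.57 (SE 0.18, adjusted p = 0.0874) and nidogen Nid1 -0.94 (SE 0.30, adjusted p = 0.0926). Lamc1 passed with DESeq2 (adjusted p = 0.0410) and in edgeR without mouse 309 (0.0498), and Nid1 passed with DESeq2 (0.0274). Col4a1 passed in no setting, while the study reported it significantly lower from RNA sequencing and from qRT-PCR on more mice. Fabp4, a fatty acid binding protein of capillaries and adipocytes, was at -0.56 (adjusted p = 0.471) and Plvap, the diaphragm protein, at -0.21 (adjusted p = 0.255). Lamc1 and Nid1 were named after their values were seen. Most of these genes are also made by stellate cells and fibroblasts, whose own list moved the same way. Its median log2 fold change was -0.79, and 2 of 21 tested genes were lower past the threshold, against 1.90% of all tested genes.

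Ligands and receptors around Kdr held no called gene in the main fit either. Vegfa, the ligand of Kdr that hepatocytes make in liver, was at 216, 203, 181 and 229 CPM in AAV8-GFP livers and at 298, 253, 241 and 261 CPM in AAV8-AGXT livers. Every AAV8-AGXT liver was above every AAV8-GFP liver (log2 fold change 0.35, SE 0.12, adjusted p = 0.112). Vegfb, a ligand of VEGF receptor 1 that was named after its values were seen, lay the other way without overlap, at 26.2, 28.6, 22.97 and 31.8 CPM in AAV8-GFP livers and at 20.7, 19.05, 18.7 and 12.6 CPM in AAV8-AGXT livers. Its log2 fold change was -0.63 (SE 0.16, adjusted p = 0.0617). Vegfb passed with DESeq2, quality weights, upper-quartile factors, total counts and no filter, but in no fit with 1 mouse left out (adjusted p 0.0654 to 0.167). The co-receptor Nrp1 had a log2 fold change of 0.45 (adjusted p = 0.231) and Flt4, VEGF receptor 3, of -0.06 (adjusted p = 0.895). Of the 13 ligands and receptors 12 were tested, and their median was -0.09. Without overlap 1 of the 12 was higher and 1 lower, against 8.93% and 7.63% of all tested genes.

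The remaining endothelial lists had medians below that of all tested genes and no call in the main fit. Among adhesion molecules (6 of 8 tested, median -0.46), Vcam1 had a log2 fold change of -0.49 (adjusted p = 0.331), Jam2 of -0.19 (adjusted p = 0.719) and Icam1, which binds leukocyte integrins, of -0.82 (adjusted p = 0.0765). Icam1 was at 27.5 to 32.6 CPM in AAV8-GFP livers and at 8.91 to 22.2 CPM in AAV8-AGXT livers, without overlap. The transcription factor list (11 tested, median -0.07) included Gata4, which directs sinusoidal identity, at 0.06 (adjusted p = 0.867), Maf at -0.07 (adjusted p = 0.723) and Nr2f2 at 0.22 (adjusted p = 0.229). In the list of Notch and vein genes (13 tested, median -0.20), Ltbp4 was at -0.20 (adjusted p = 0.604), Notch1 at -0.31 (adjusted p = 0.264) and Jag1 at 0.10 (adjusted p = 0.883). Over the 7 endothelial lists together 1 of 89 tested genes passed, against 4.35% of all tested genes. Groups without overlap were found for 2 of the 89 in the higher direction and 8 in the lower, Icam1 among them. The shares of all tested genes were 8.93% higher and 7.63% lower.

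**Figure D3:**
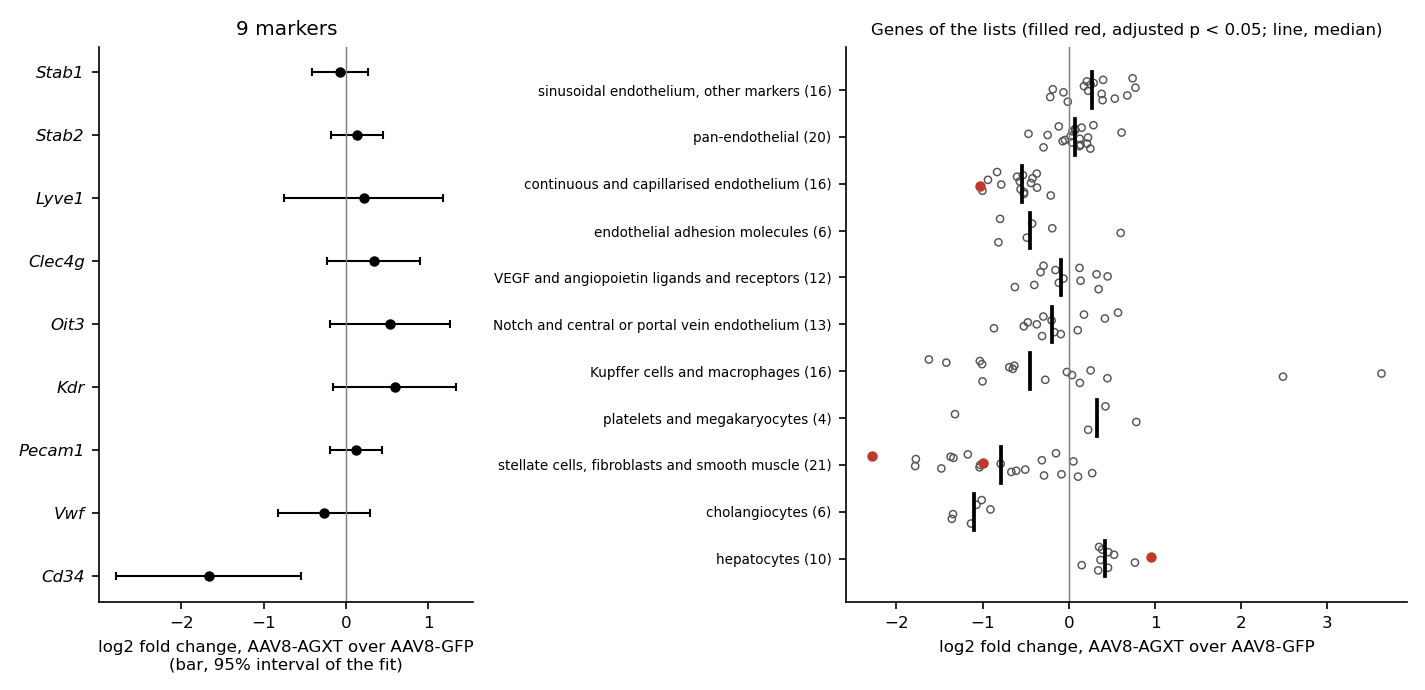
Left, log2 fold change of AAV8-AGXT over AAV8-GFP for the 9 markers with the 95% interval of the edgeR fit; right, the tested genes of 11 lists (open circles, filled red where the adjusted p is under 0.05) with the list median as a line. Cd34 (-1.67) is the only marker whose interval excludes 0, and all 16 genes of the continuous and capillarised list lie left of 0.

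**Figure D4:**
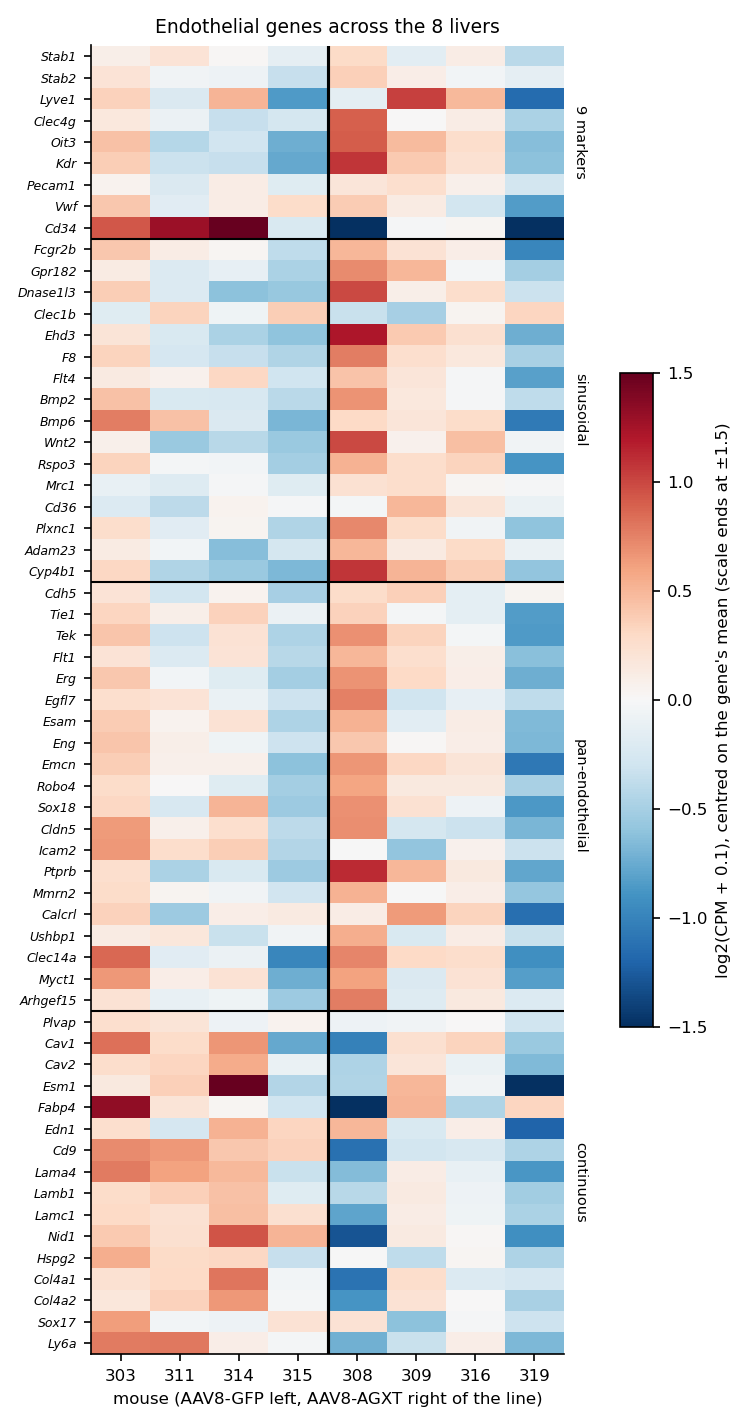
log2(CPM + 0.1) of the 9 markers and of the tested sinusoidal, pan-endothelial and continuous lists, each gene centred on its mean over the 8 livers (colour, ends at ±1.5). Mice 303 and 308 are mostly red and mice 315 and 319 mostly blue in the sinusoidal and pan-endothelial blocks, while Cd34 and the continuous block are mostly red in AAV8-GFP mice 303, 311 and 314 and blue in AAV8-AGXT mice 308 and 319.

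Genes of other cells that can carry these markers moved with some of them. The 21 tested genes of stellate cells, fibroblasts and smooth muscle, some of which share Cd34, had 18 below 0, and their summed level was 856 to 1328 CPM in AAV8-GFP livers and 503 to 952 CPM in AAV8-AGXT livers. The called genes were Acta2, smooth muscle actin (log2 fold change -0.99, adjusted p = 0.0427), and Timp1, a metalloproteinase inhibitor (-2.29, adjusted p = 0.0444). Acta2 lost its call with limma-voom (0.0622), with quality weights (0.065) and with any single mouse left out (adjusted p 0.0575 to 0.116), and Timp1 lost it without mouse 303, 308, 309, 311, 314 or 319 (0.0528 to 0.148). Cholangiocyte genes summed to 25.6 to 70.9 CPM in AAV8-GFP livers and to 15.1 to 37.5 CPM in AAV8-AGXT livers, with all 6 below 0 and none called. Of the blood progenitor list, 3 of 7 genes were tested and none called, its sum was 8.40 to 10.1 CPM against 6.75 to 12.3 CPM, and Ctsg and Gata1 had no read in any library. The 3 tested were Cd27 (log2 fold change -0.94, adjusted p = 0.0805), Flt3 (-0.59, adjusted p = 0.196) and Kit (0.17, adjusted p = 0.748).

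Kupffer cell and macrophage genes share Stab1, Lyve1 and Mrc1 with sinusoids. Their sum was 1274 to 1985 CPM in AAV8-GFP livers and 477 to 1549 CPM in AAV8-AGXT livers. Spp1 was the largest gene of the AAV8-GFP sum, with means of 484 CPM there and 157 CPM in AAV8-AGXT livers. The list did not move as a class, with 10 of 16 below 0, 6 above and none called. Marco had a log2 fold change of 3.63, with 156 CPM in mouse 319, and Timd4 of 2.49, against -1.42 for Trem2. Marco was higher without overlap, and Cd68 and Itgam were lower without overlap. Platelet genes, which share Vwf and Pecam1, summed to 12.7 to 16.5 CPM and 12.2 to 18.5 CPM, with 4 of 10 tested and none called. The 4 went both ways: Pf4 was at -1.32 (adjusted p = 0.0816), Itgb3 at 0.78 (adjusted p = 0.0703), Gp1ba at 0.42 and Itga2b at 0.22. T, NK and B cell genes had 7 of 10 tested below 0 and none called, and their sums were 19.4 to 28.4 CPM and 9.39 to 20.4 CPM. Lymphatic genes, which share Lyve1, had 5 of 7 tested and none called, with Ccl21a and Mmrn1 too low to test, and summed to 142 to 176 CPM and 188 to 218 CPM, most of it from genes that other liver cells also make. Hepatocyte genes summed to 47938.5 to 58227.7 CPM in AAV8-GFP livers and to 59223.8 to 81401.9 CPM in AAV8-AGXT livers, without overlap. All 10 were above 0 and 1 was called, against 2.45% of all tested genes called higher. It was Cps1 of the urea cycle (log2 fold change 0.96, adjusted p = 0.0279, and 0.0529 to 0.117 without mouse 303, 311, 314 or 319). All 5 erythrocyte genes were above 0 with none called. What part these cells had in the levels of Cd34 or of any other marker was not tested.

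The genes closest to each marker across the 8 livers were found among all tested genes by the root mean square difference of log2 CPM profiles centred on their means. Oit3 and Kdr were nearest to each other (0.085), with Cyp4b1 and the endothelial adhesion receptor Adgrl4 as the next 2 for both (0.115 to 0.132). The nearest gene to Stab1 was Nos3, endothelial nitric oxide synthase (0.065), followed by Nfat5 and Gpr157. Clec4g was nearest to the natriuretic peptide receptor gene Npr1 (0.098), then Plin5 and Adgrg3. For Stab2 they were Ppil3, Spats2 and Arhgap23, for Pecam1 Nt5c3, Sin3a and Ing5, for Lyve1 Gm29017, Cd4 and Fam174b, and for Vwf Foxd2os, Hmgcs1 and Clpx. Stab1, Stab2 and Pecam1 varied little, with root mean squares of 0.21, 0.20 and 0.19 around their own means. Genes that also varied little therefore lie near them whatever their function, and Stab2 itself was at place 703 from Stab1.

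Cd34 stood with another set. Its nearest genes were Plat, tissue plasminogen activator (0.147), Spp1, osteopontin (0.195), and Cldn4, an epithelial claudin (0.221), against a root mean square of 1.19 for Cd34 around its own mean. Plat averaged 10.8 CPM in AAV8-GFP livers and 3.22 CPM in AAV8-AGXT livers (log2 fold change -1.75, adjusted p = 0.0578), and Spp1 averaged 484 and 157 CPM (-1.62, adjusted p = 0.0704). Of the other 8 markers the closest to Cd34 was Lyve1, at 1.05, which was place 3129 among all tested genes. These are descriptions over 8 livers that share 2 treatment groups.

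Some read pairs could not be assigned to 1 gene and are not in the counts. The exons of Stab1 overlap those of Nt5dc2 on the opposite strand, and Stab2, Clec4g and Cd34 overlap the predicted genes Gm16268, Gm16553 and Gm16897 on the opposite strand. The library kit keeps strand, but the strand setting of the counting is not given in the sources used here, and 5.02% to 6.36% of read pairs per library were set aside as ambiguous between genes.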

How the data were processed

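Counts: the authors deposited 1 table of raw HTSeq counts per mouse (read pairs per Ensembl gene, not normalized). Per the labels and the study's methods, poly(A) libraries were made with a stranded Illumina kit, reads were checked with FastQC 0.11.8, trimmed with Trimmomatic 0.35 and aligned to GRCm38 with HISAT2 2.1.0.13. The 5 tallies that name no gene were left out, which kept 56.3% to 69.1% of read pairs. Of 52636 genes 52489 were named and placed from GENCODE M21. Here the counts were filtered with filterByExpr, TMM-scaled and tested with edgeR 4.0.16 (quasi-likelihood, treatment as the only factor, Benjamini-Hochberg over 15248 genes, R 4.3.3), where common variation between mice was 23.3%. Log2 CPM used a prior count of 2. Exact two-sided permutation tests used the 70 divisions of 8 mice. Alternatives were DESeq2 1.42.0, limma 3.58.1, other scaling factors and filters, and each mouse left out. The code was tested on simulated data. Each library is a separate mouse, and animal numbers pair no mice. The 9 genes and the 16 lists of other genes were chosen with earlier results of these data known. Genes named from lists were those called, else the 3 with the highest mean CPM, with exceptions stated. The 3 nearest genes of each marker are a description.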

Additional observations from a re-analysis of the deposited data

How the results depend on the processing

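No marker but Cd34 passed the threshold under any of 17 alternatives, and Oit3, Kdr, Clec4g, Vwf and Cd34 kept their sign in all of them. Stab1 was at 0.05 without mouse 319 and Lyve1 at -0.19 without mouse 309, and with total counts Stab2 and Pecam1 were each at -0.11, where the median of all genes was -0.22. At an unadjusted p under 0.05 there were 3 members without mouse 303 (Cd34, Oit3 and Kdr) and 4 without mouse 319 (these and Clec4g), against 1 in the fit of all mice, and without mouse 308 the log2 fold changes of Oit3 and Kdr fell to 0.28 and 0.26. Calls over all tested genes were 664, 2078 with DESeq2, 1410 with voom quality weights and 1001 with total counts, and 2 to 643 with 1 mouse left out (193 without 303, 2 without 311, 15 without 314, 629 without 315, 177 without 308, 643 without 309, 411 without 316, 14 without 319). With total counts 144 were higher and 857 lower, and with upper-quartile factors 254 and 298. Among the 9 members there were 0 calls, 1 with DESeq2, 1 without a filter and 0 with any mouse left out. In the 7 endothelial lists the 1 call became 7 with DESeq2, 3 with quality weights, 2 with upper-quartile factors, 3 with total counts, 3 without a filter, and 0 to 2 with 1 mouse left out. In the 9 other lists the 3 calls became 26, 8, 9 (total counts) and 13 (no filter), and 0 to 7 with 1 mouse left out. Relative to Cdh5 alone, the difference was 0.0054 for Clec4g (0.24 against the list), 0.24 for Oit3 (0.48) and 0.28 for Kdr (0.51). Per kilobase of the longest transcript, AAV8-GFP means were 11.8 for Stab1, 24.1 for Clec4g, 2.78 for Kdr, 4.80 for Pecam1, 1.08 for Vwf and 2.35 for Cd34. The cause was not tested, beyond the fewer mice or the larger number of genes a setting brings. No paired analysis was possible because the groups share no animal number. With 4 mice a group, and 12 to 285 read pairs for Cd34, the intervals given set how small a difference could be seen.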
